A study of Mus musculus with 4 samples.

Results

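Tight junctions seal the cleft between neighbouring cells. Their strands are built from claudins, a family of membrane-spanning proteins, together with occludin (Ocln) and tricellulin (Marveld2), and they are tied to the actin cytoskeleton by zonula occludens proteins such as Tjp1 (ZO-1). A set of 8 genes of this machinery was described here: Cldn1, Cldn5, Cldn10, Cldn11, Cldn12, Ocln, Tjp1 and Marveld2. They were taken by name, as 8 of the 33696 genes counted, and their unique molecular identifiers (UMIs, 1 per captured transcript molecule) were summed by cell class, fibroblast state, region and library.

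The data were single-nucleus RNA sequencing of mouse cortex at 21 days after a photothrombotic injury (PT, a light-induced focal ischaemic stroke). Each group was a single library. The library labelled control came from wild-type (WT) mice and the library labelled Cxcl12-cKO from Col1a2(creER); Cxcl12(flox) mice, here called cKO-labelled, in which a tamoxifen-inducible Cre expressed from the Col1a2 promoter in fibroblasts deletes Cxcl12. Every library pooled nuclei of 1 male and 1 female mouse, so that genotype and animal cannot be told apart, and lesion and surrounding parenchyma (perilesional cortex) were tagged separately and mixed at 75% and 25%. All mice were injured, and the labels give no age. With 1 library a group no test between genotypes was possible. Values are given with 95% intervals that cover counting error only, from exact Poisson limits for CPM (UMIs of a gene per 1000000 UMIs) and exact binomial limits for shares and ratios.

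In the brain, endothelial tight junctions form the blood-brain barrier, and Cldn5 is their main claudin. Cldn11 is the claudin of central myelin, made by oligodendrocytes, and is also known in the arachnoid barrier, the layer of sealed cells in the leptomeninges that separates cerebrospinal fluid from the dura. Cldn10 is known in astrocytes and in salt-transporting epithelia, Cldn1 in skin and other epithelia, and Cldn12 is broadly expressed and lacks the scaffold-binding tail end of other claudins. Ocln lies in strands between pairs of cells and Marveld2 where several cells meet.

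The promoters of the 4 genes whose levels differed together between endothelial subclusters or between fibroblast states are shown as the 250 bases before the transcription start, from RefSeq on GRCm38.p6. All 8 genes were matched there, with 13 starts. GRCm38.p6 is an earlier build than the one the nuclei were counted on, and was used for these sequences only. Capitals mark matches on either strand to the GC box GGGCGG (read CCGCCC on the other strand), the ETS core CCGGAA, the SOX core ACAATG or the E2 box CAGGTG. The E2 box is bound by Snail and Zeb repressors, ETS factors act in endothelium and SOX factors in glia, as background.
Cldn5 promoter, chr16:18776597-18776846, + strand: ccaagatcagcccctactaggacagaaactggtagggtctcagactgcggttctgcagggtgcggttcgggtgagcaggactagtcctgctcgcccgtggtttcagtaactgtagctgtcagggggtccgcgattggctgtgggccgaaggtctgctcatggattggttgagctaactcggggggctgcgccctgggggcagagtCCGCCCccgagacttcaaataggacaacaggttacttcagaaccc
Ocln promoter of the more downstream start, chr13:100552499-100552748, - strand: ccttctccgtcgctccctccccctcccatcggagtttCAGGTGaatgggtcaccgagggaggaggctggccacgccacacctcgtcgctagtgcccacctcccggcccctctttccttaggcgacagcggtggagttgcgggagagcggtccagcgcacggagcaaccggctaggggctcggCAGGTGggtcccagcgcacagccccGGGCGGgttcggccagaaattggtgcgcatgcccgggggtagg
Tjp1 promoter, chr7:65371245-65371494, - strand: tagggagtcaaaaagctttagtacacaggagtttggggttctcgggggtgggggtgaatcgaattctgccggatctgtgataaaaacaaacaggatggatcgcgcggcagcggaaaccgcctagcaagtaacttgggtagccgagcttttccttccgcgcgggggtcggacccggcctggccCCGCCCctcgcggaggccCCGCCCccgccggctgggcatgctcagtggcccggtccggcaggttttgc
Cldn11 promoter, chr3:31149670-31149919, + strand: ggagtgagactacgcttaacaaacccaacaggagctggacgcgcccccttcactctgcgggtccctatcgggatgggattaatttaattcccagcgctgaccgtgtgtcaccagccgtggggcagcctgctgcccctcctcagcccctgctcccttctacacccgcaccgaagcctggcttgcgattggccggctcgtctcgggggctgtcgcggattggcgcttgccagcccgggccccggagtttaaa

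The Cldn5 window held 1 GC box, 45 bases before the start, and the Tjp1 window 2, at 68 and 50 bases. The Ocln window held a GC box at 43 bases and 2 E2 boxes, at 213 and 68 bases, and the Cldn11 window held none of the 4 motifs. The window of the other Ocln start, not printed, held a GC box at 112 bases, an ETS core at 227 bases and no E2 box. Among 32851 promoters of the same length, 32.7% held the GC box, 12% the ETS core, 10.7% the SOX core and 17.2% the E2 box. The G and C content of the 4 windows was 59.6%, 69.2%, 63.2% and 63.6% in the order printed, against a median of 52.4% over all promoters. These matches describe letters in the windows and say nothing of binding.

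Of 23489 barcodes, 21743 were kept as nuclei. The lesion held 8095 nuclei in the control-labelled library and 7933 in the cKO-labelled library, with medians of 2962 and 2975 UMIs per nucleus, and the parenchyma held 2877 and 2838 nuclei with medians of 15915 and 16648, where neurons were most numerous. The targeted gene went against its label. Cxcl12 in lesional fibroblast-like nuclei stood at 106 CPM (101 to 111) in the control-labelled library and at 215 CPM (207 to 222) in the cKO-labelled library, a log2 ratio of 1.02 (0.93 to 1.11). The deleted part of the gene was not known here, so 3′ counts outside it would not check the deletion. Libraries are therefore called by their labels throughout, and every ratio between libraries below is cKO-labelled over control-labelled. Between 9.75% and 14.3% of kept nuclei in a matrix carried UMIs of both sexes, and a matrix of one library shared 1 to 22 barcodes with a matrix of the other.

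Counts of the 8 genes ranged widely. Tjp1 gave 67519 UMIs and was seen in 62.4% of kept nuclei, Cldn11 gave 4035 in 11.6%, Cldn12 gave 2335 in 9.28%, Ocln gave 784 in 2.94%, Cldn5 gave 529 in 0.814%, Cldn10 gave 460 in 1.80%, Marveld2 gave 355 in 1.5% and Cldn1 gave 109 in 0.442%. These are totals over cells of unequal number and depth, and transcripts of unequal length, and do not rank the genes. Endothelial-like nuclei held 72.4% of all Cldn5 UMIs, and fibroblast-like nuclei held 68.6% of Cldn11 and 44.1% of Ocln. Excitatory neuron-like nuclei, which carried most UMIs of every kind, held 60.0% to 65.2% of Cldn10, Cldn12, Tjp1 and Marveld2 and 38.5% of Cldn1.

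**Figure D1:**
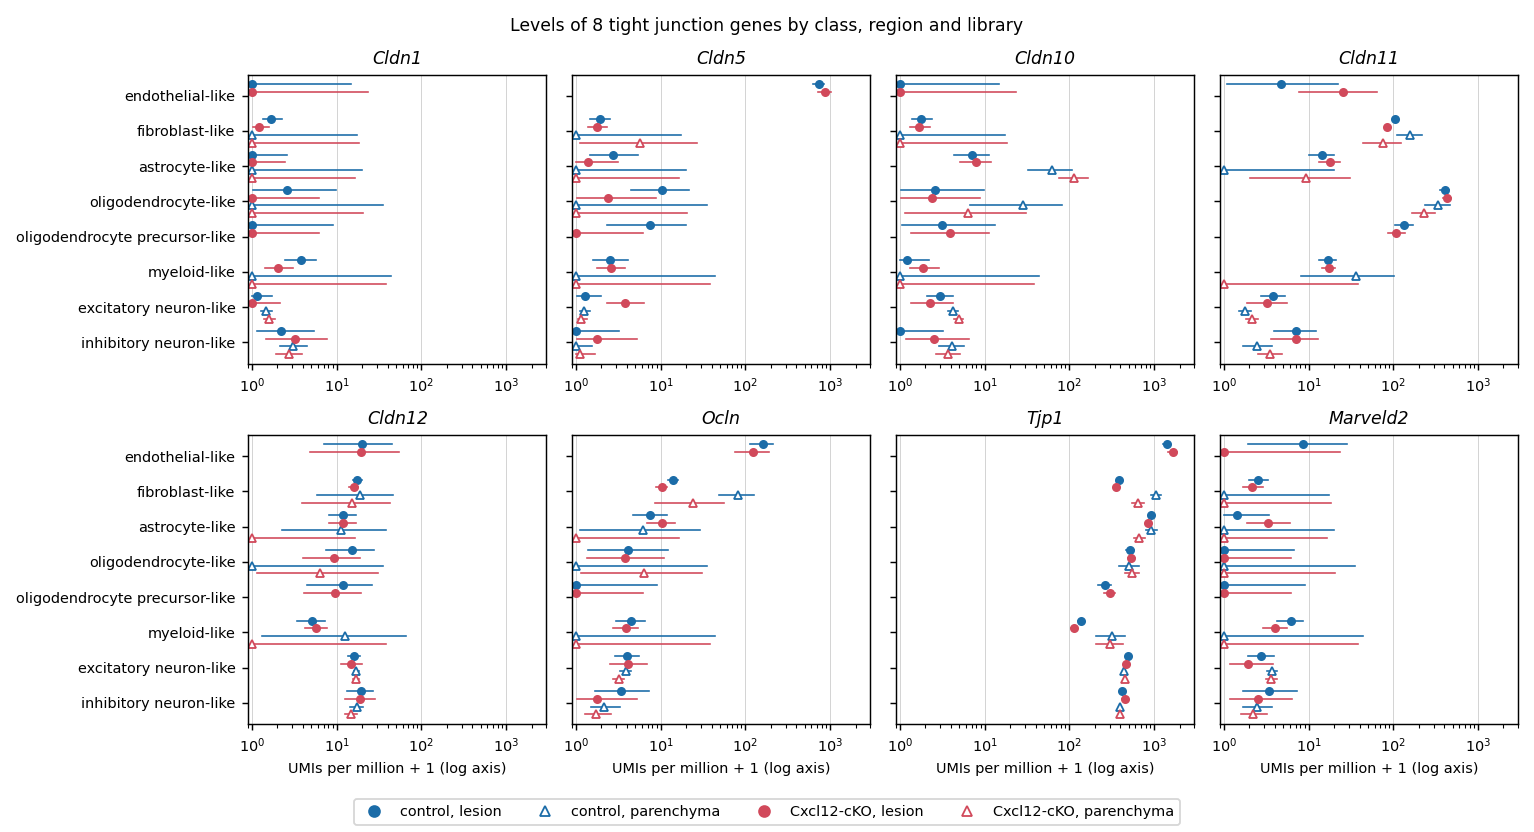
Level of each tight junction gene by cell class, region and library, drawn as CPM + 1 on a log axis with 95% counting intervals, for sums over at least 25 nuclei; filled circles are lesion and open triangles parenchyma, and a point at the left edge is a sum of 0 UMIs. Cldn5 stood out in endothelial-like nuclei, Cldn11 in oligodendrocyte-like, precursor-like and fibroblast-like nuclei, and Cldn10 in astrocyte-like nuclei of the parenchyma.

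Cldn5, the sealing claudin of brain capillaries, was concentrated in endothelial-like nuclei in both libraries. In the lesion it gave 195 UMIs over 103 endothelial-like nuclei in the control-labelled library, or 736 CPM (637 to 847), and 140 UMIs over 52 nuclei in the cKO-labelled library, or 861 CPM (724 to 1016). In the parenchyma it gave 10 UMIs over 8 nuclei, 690 CPM (331 to 1268), and 38 UMIs over 13 nuclei, 1454 CPM (1029 to 1996). The lesional values overlapped in their intervals, and the parenchymal ones rest on very few nuclei. With each nucleus classed by its own marker UMIs instead of its cluster, the lesional values were 376 and 330 CPM. Outside the vascular clusters Cldn5 was low. Lesional fibroblast-like nuclei stood at 0.908 and 0.750 CPM, and parenchymal excitatory neuron-like nuclei at 0.25 and 0.154 CPM.

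Some neighbours of the endothelium in the clustering carried intermediate levels. Mural-like nuclei, the pericytes and smooth muscle that wrap vessels, gave 1 and 5 Cldn5 UMIs over 42 and 15 nuclei. A vascular subcluster of 84 nuclei, led by Il33, Csf3r and Fgr, had 7 of 7 fibroblast and 7 myeloid markers up among vascular nuclei, and was kept apart from every class. It stood at 123 CPM (81.4 to 177) and 143 CPM (86.1 to 223). Cldn5 stood at 5.65 and 6.84 UMIs per 100 UMIs of the endothelial marker list in endothelial-like nuclei, against 0.214 and 0.208 in fibroblast-like nuclei. In lesional excitatory neuron-like nuclei of the cKO-labelled library, 8 of 9 Cldn5 UMIs came from 1 nucleus.

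Cldn5 was seen in 45.6% of lesional endothelial-like nuclei in the control-labelled library and in 34.6% in the cKO-labelled library, at median depths of 2183 and 2518 UMIs. Thinned to 1000 UMIs per nucleus, which left out 5 nuclei in each library, the shares were 35.7% and 29.8%. The shares in lesional excitatory neuron-like nuclei, a class not known to make Cldn5, were 0.396% and 0.847% at medians of 14001 and 12831 UMIs, and 0% in both after thinning. The endothelial share lay far above that background. Its UMIs were unevenly spread, with up to 24 and 27 in 1 nucleus. The endothelial marker list summed to 13030 and 12597 CPM in these nuclei, the fibroblast list to 487 and 344 CPM and the myeloid list to 310 and 221 CPM, and surface epithelial markers gave 0 and 1 UMIs.

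Endothelial-like nuclei fell into 2 subclusters, formed without the tight junction genes, that differed in Cldn5 and Tjp1 and, less evenly, in Ocln. The subcluster of 97 nuclei was led by Chrm2, Enpp3, Plvap and Slco2a1. Plvap forms the diaphragms of leaky, fenestrated vessels. The subcluster of 79 nuclei was led by Col6a6, Slc19a3, Slc38a5 and Bsg, of which Slc38a5 is an amino acid transporter and Bsg (basigin) a partner of monocarboxylate transporters in brain capillaries. They are called here the Plvap and the Slc38a5 subcluster. In the lesion the Plvap subcluster held 62 and 35 nuclei, with median depths of 1682 and 2247 UMIs, and the Slc38a5 subcluster 41 and 17, with medians of 2455 and 4273. All parenchymal endothelial-like nuclei, 8 and 13, fell in the Slc38a5 subcluster, though they gave only 1 and 0 UMIs of Slc38a5. The Cldn5 values of lesion and parenchyma given above thus come from unlike mixtures of the subclusters.

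Cldn5 stood at 190 and 121 CPM in the Plvap subcluster and at 1320 and 1805 CPM in the Slc38a5 subcluster, in the control- and cKO-labelled libraries. It was seen in 19.4% and 8.57% of nuclei of the Plvap subcluster and in 85.4% and 88.2% of the Slc38a5 subcluster. The log2 ratio of Slc38a5 over Plvap subcluster was 2.77 (2.19 to 3.45) and 3.84 (3.02 to 4.94). Tjp1, the scaffold, moved the same way in both libraries, from 512 and 483 CPM to 2374 and 3149 CPM, with log2 ratios of 2.21 and 2.69. Ocln stood at 110 and 43.9 CPM against 211 and 224 CPM, and its log2 ratio was 0.92 (-0.02 to 1.96) and 2.23 (0.72 to 4.39), so that in the control-labelled library the interval held 0. By mouse, Ocln went the other way in the control female, at 207 CPM (13 UMIs) in the Plvap and 164 CPM (5 UMIs) in the Slc38a5 subcluster. It stood at 54.0 against 216 CPM in the control male. In the cKO-labelled library it stood at 96.9 against 157 CPM in the female and 27.6 against 332 CPM in the male.

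Of the 8 genes, 3 had the 50 UMIs needed in these nuclei, and all 3 were at least 1.5-fold higher in the Slc38a5 subcluster in both libraries. Over the 1951 genes with that many UMIs, 12% were so in that direction and 11.5% in the other. Cldn5 and Ocln reached that minimum only through the Slc38a5 subcluster. Cldn5 gave 26 and 11 UMIs in the Plvap subcluster against 169 and 129, and Ocln 15 and 4 against 27 and 16. Their entry thus depended on where they were high, and the count is no separate support. Abcb1a, the drug efflux pump, stood at 446 and 373 CPM in the Plvap subcluster and 1429 and 1679 CPM in the Slc38a5 subcluster, and Plvap itself at 424 and 351 CPM against 7.81 and 0 CPM. Of the other tight junction genes tested here, 4 of 15 were higher in the Slc38a5 subcluster, among them the polarity gene Pard3 at 294 against 1033 CPM over both libraries, and 2, Amotl1 and Magi2, were lower. The median log2 ratio of the 15 was -0.18, against -0.086 over all genes tested, so the list as a whole was not higher there. Abcb1a was among the markers that named the endothelial class, and Plvap and Slc38a5 helped to form the subclusters, so their values describe the subclusters and are no separate finding.

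**Figure D2:**
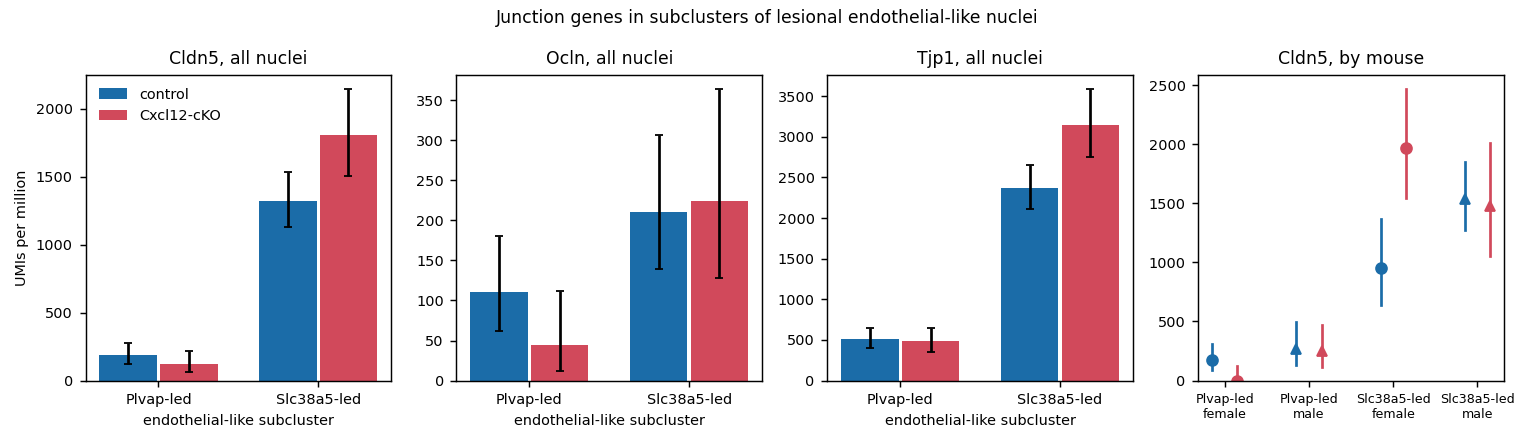
Cldn5, Ocln and Tjp1 in the Plvap-led and Slc38a5-led subclusters of lesional endothelial-like nuclei, in CPM by library (bars start at 0), and Cldn5 by mouse in the right panel, all with 95% counting intervals. Cldn5 and Tjp1 stood higher in the Slc38a5 subcluster in both libraries without overlap of the intervals, and within it the female mice stood at 951 and 1968 CPM of Cldn5.

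The library labels did not order Cldn5 in one direction. Over all lesional endothelial-like nuclei the log2 ratio was 0.23 (-0.098 to 0.55). Nuclei assigned to the female mouse by sex-linked genes stood at 429 CPM (40 UMIs) in the control-labelled library and 1086 CPM (75 UMIs) in the cKO-labelled library, a log2 ratio of 1.33 (0.77 to 1.93). Nuclei assigned to the male mouse stood at 1116 CPM (124 UMIs) and 774 CPM (49 UMIs), a log2 ratio of -0.52 (-1.04 to -0.041). The 4 mice thus ran in opposite directions. The share of endothelial-like nuclei in the Slc38a5 subcluster ran with them: 10 of 39 (25.6%) in the control female, 19 of 33 (57.6%) in the control male, 8 of 20 (40.0%) in the Cxcl12-cKO female and 5 of 14 (35.7%) in the Cxcl12-cKO male. Within the Slc38a5 subcluster Cldn5 stood at 951 against 1968 CPM in females (log2 1.03, 0.41 to 1.72) and at 1540 against 1475 CPM in males (-0.051, -0.62 to 0.47). Within the Plvap subcluster it ran the other way in females, with 11 against 0 UMIs, or 175 CPM (87.4 to 313) against 0 CPM (up to 119), and stood at 270 against 249 CPM in males. The male values rested on 10 UMIs in 5 of 14 nuclei in the control-labelled library and 9 UMIs in 1 of 9 nuclei in the other. The part of subcluster shares in the result over all endothelial-like nuclei was not tested beyond these values.

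Cldn11, the myelin claudin, was highest in oligodendrocyte-like nuclei and gave most of its UMIs in fibroblast-like nuclei. Lesional oligodendrocyte-like nuclei stood at 407 CPM (359 to 459) over 199 nuclei in the control-labelled library and 431 CPM (384 to 481) over 207 nuclei in the cKO-labelled library. Lesional oligodendrocyte precursor-like nuclei, in a cluster led by Bcas1, Enpp6 and Neu4, genes of precursors that begin to differentiate, stood at 134 CPM (103 to 172) and 108 CPM (85.3 to 135). Lesional fibroblast-like nuclei stood at 105 CPM (99.7 to 110) over 4179 nuclei and 82.7 CPM (78.1 to 87.5) over 4102 nuclei. Oligodendrocyte-like nuclei stood above both other classes in both libraries, and the intervals of precursor-like and fibroblast-like nuclei overlapped.

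In the parenchyma Cldn11 in oligodendrocyte-like nuclei stood at 333 CPM (233 to 461) over 27 nuclei and 227 CPM (164 to 306) over 32. The log2 ratio of lesion over parenchyma was 0.27 (-0.22 to 0.83) in the control-labelled library and 0.91 (0.46 to 1.42) in the cKO-labelled library. Only the latter interval lay above 0. Parenchymal fibroblast-like nuclei stood at 156 CPM (109 to 218) over 51 nuclei and 75.0 CPM (42.9 to 122) over 50, and parenchymal precursor-like nuclei gave 2 UMIs in each library.

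Cldn11 was seen in 65.3% and 65.7% of lesional oligodendrocyte-like nuclei and in 23.4% and 18.8% of lesional fibroblast-like nuclei, whose median depths were 2620 and 2551, and 3057 and 3085 UMIs. Thinned to 1000 UMIs, which left out 4 and 3 oligodendrocyte-like and 110 and 101 fibroblast-like nuclei, the shares were 37.9% and 38.2%, and 10.6% and 7.67%. In lesional excitatory neuron-like nuclei, not known to make Cldn11, the shares were 3.37% and 2.97% before and 0.198% and 0.426% after thinning, with median depths of 14001 and 12831 UMIs. Those of the parenchyma had 1.36% and 2.11% before and 0.0454% and 0.193% after. Thinned lesional myeloid-like nuclei, another class not known to make it, stood at 1.20% and 1.25%. Both classes lay above each of these shares.

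Setting Cldn11 against the oligodendrocyte marker list set the fibroblasts apart from several classes with a low level. Cldn11 stood at 3.21 and 3.28 UMIs per 100 list UMIs in lesional oligodendrocyte-like nuclei. It stood at 3.44 and 4.06 in precursor-like, 3.27 and 3.0 in excitatory neuron-like and 3.49 and 2.79 in myeloid-like nuclei, close to the ratio in oligodendrocytes. In fibroblast-like nuclei it stood at 89.0 and 68.6. Astrocyte-like nuclei, at 13.5 and 16.7 CPM in the lesion, stood between, at 8.18 and 10.9 UMIs per 100, as did inhibitory neuron-like nuclei at 12.7 and 7.69. Other classes gave few UMIs of either kind. Endothelial-like nuclei gave 1 and 4 Cldn11 UMIs, a ratio of 5.26 and 66.7, osteoblast-like nuclei 14 and 4, a ratio of 23.0 and 44.4, and T cell-like nuclei 11 and 2, a ratio of 14.5 and 3.28.

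**Figure D3:**
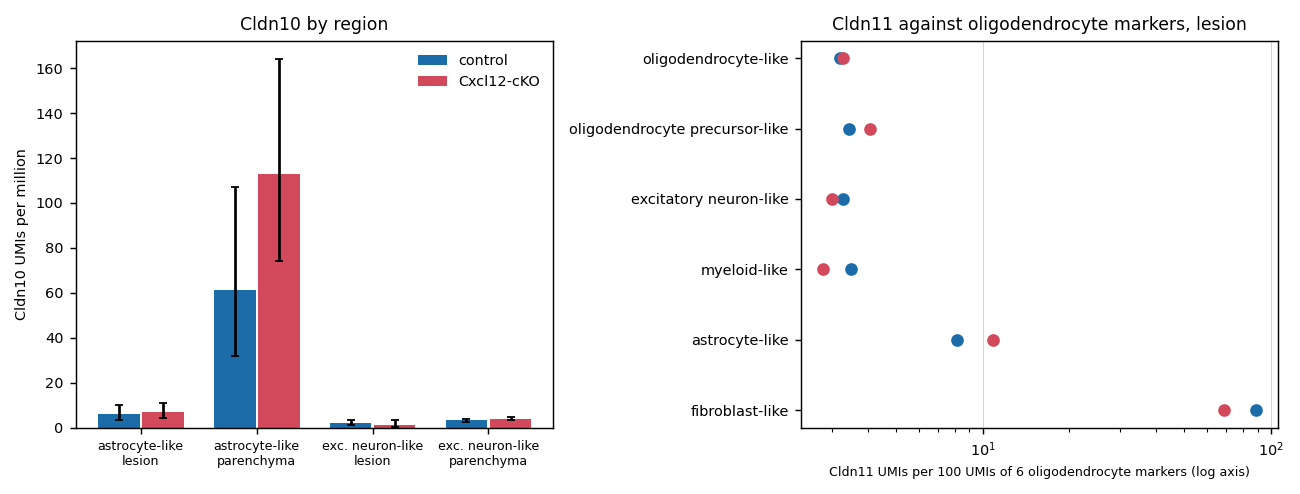
Left, Cldn10 in CPM in astrocyte-like and excitatory neuron-like nuclei by region and library, with 95% counting intervals; right, Cldn11 UMIs per 100 UMIs of the 6 oligodendrocyte markers in lesional classes, on a log axis. Cldn10 was highest in parenchymal astrocyte-like nuclei, at 61.4 and 113 CPM, and the Cldn11 ratio of fibroblast-like nuclei, at 89.0 and 68.6, lay to the right of the other classes drawn.

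Lesional fibroblast-like nuclei, clustered without the tight junction genes, formed 4 states. State 0 was led by Erg and Lama3 and was late-inner-like by its markers, and state 1 was led by Prmt8 and Npr3 and was dural-like. State 2 was led by Sptssb, Trpm3, Dpp4, Ptgds, Ranbp3l and Cdh1. It carried 3 of 6 arachnoid barrier markers and also 3 of 5 leptomeningeal markers, and is called the Dpp4/Cdh1 state here. With the tight junction genes kept in the clustering, the matching cluster carried 4 of 5 leptomeningeal markers and was leptomeningeal-like. State 3 was led by Gm30613, Dcdc2a and Col4a6 and carried 4 of 5 leptomeningeal markers. In the order of their numbers the states held 976, 1099, 1731 and 373 nuclei in the control-labelled library and 1272, 837, 1505 and 488 in the cKO-labelled library.

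Ocln, a strand protein of barriers, was highest by far in the Dpp4/Cdh1 state among the lesional fibroblast states. It stood there at 31.7 CPM (27.1 to 36.8) and 26.7 CPM (22.3 to 31.7) in the control- and cKO-labelled libraries. In states 0, 1 and 3 it stood at 0.940, 1.73 and 5.18 CPM in the control-labelled library and at 0.807, 0.303 and 1.29 CPM in the cKO-labelled library. The log2 ratio of the Dpp4/Cdh1 state over the other states was 4.03 (3.34 to 4.88) and 5.13 (4.14 to 6.57).

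Cldn11 and Tjp1 were highest in the same state. Cldn11 stood at 191 and 166 CPM in the Dpp4/Cdh1 state. It stood at 15.7 and 20.4 CPM in the late-inner-like state, 76.0 and 71.6 CPM in the dural-like state and 69.9 and 43.7 CPM in the leptomeningeal-like state. The Dpp4/Cdh1 state was highest and the late-inner-like state lowest in both libraries. Tjp1 stood at 645 and 624 CPM in the Dpp4/Cdh1 state, against 354 and 305 CPM in the leptomeningeal-like, 230 and 223 CPM in the dural-like and 205 and 196 CPM in the late-inner-like state. The log2 ratios of the Dpp4/Cdh1 state over the others were 1.83 and 2.01 for Cldn11 and 1.44 and 1.49 for Tjp1.

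Cldn12 did not follow. It stood between 12.1 and 19.4 CPM in every state and library, with log2 ratios of -0.16 and -0.0025. Thus 3 of the 4 tight junction genes with 50 UMIs in these nuclei were at least 1.5-fold higher in the Dpp4/Cdh1 state in both libraries, against 5.60% of the 14338 genes tested in that direction and 8.17% in the other. Ocln reached that minimum only through the Dpp4/Cdh1 state, with 169 and 130 UMIs there against 17 and 7 in the other states. Its place in this count is therefore no separate support. Cldn11 per 100 oligodendrocyte marker UMIs stood at 27.3 and 28.1 in the late-inner-like state and at 57.6 to 98.6 in the other 3 states, above the ratio in oligodendrocytes in all 4.

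**Figure D4:**
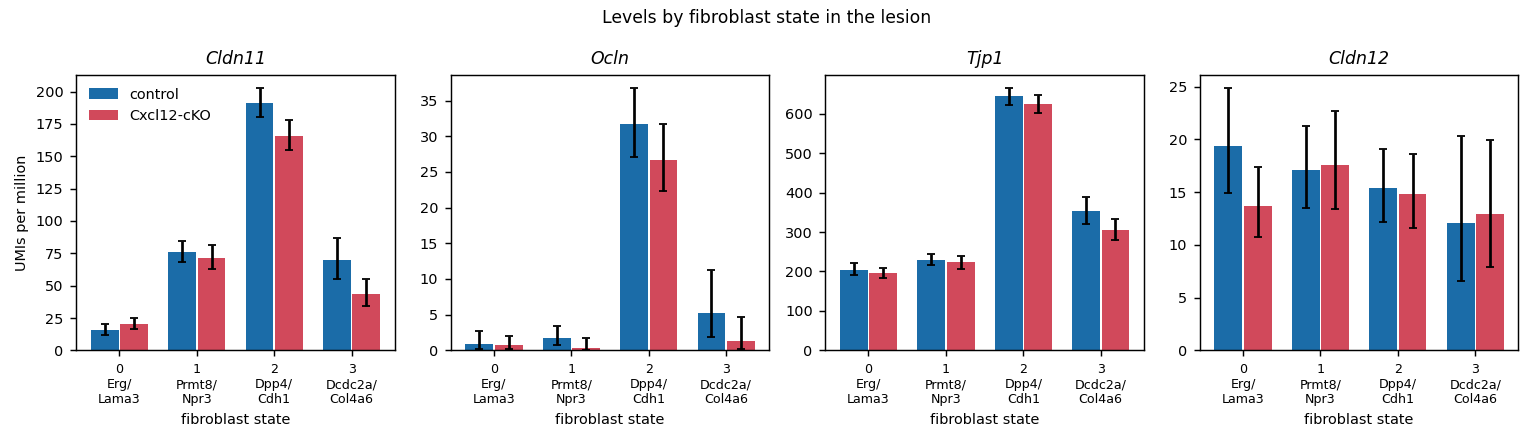
Cldn11, Ocln, Tjp1 and Cldn12 in the 4 lesional fibroblast states, in CPM by library (bars start at 0), with 95% counting intervals. Cldn11, Ocln and Tjp1 were highest in the Dpp4/Cdh1 state in both libraries, and the intervals of Cldn12 overlapped across states.

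Of 32 other tight junction genes with enough UMIs, 9 were at least 1.5-fold higher in the Dpp4/Cdh1 state in both libraries and 1 was lower. Over both libraries, Cxadr, a junctional adhesion receptor, stood at 726 CPM against 114 CPM in the other states. Lsr, the angulin that marks tricellular contacts, stood at 70.3 against 21.2 CPM. Amot, which binds polarity proteins, stood at 27.7 against 54.4 CPM. The median log2 ratio of the list was 0.36, against -0.017 over all genes tested. Other higher genes were Prkcz, Pard6g, Cgnl1, Ildr2, Magi1 and Jam2.

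The markers of other cells in the Dpp4/Cdh1 state were measured beside these values. The arachnoid barrier list summed to 633 and 519 CPM there. The leptomeningeal list summed to 1784 and 2175 CPM, less than the 4838 and 3181 CPM in the leptomeningeal-like state. Markers of surface epithelium (Epcam, Krt5, Krt14, Cdh1, Krt8 and Krt18) summed to 85.0 and 81.8 CPM. Krt5 and Krt14 gave 0 UMIs, so that sum came from the other genes of the list. Cdh1, Krt8 and Krt18 are also in the arachnoid barrier list, so the sum does not separate surface epithelium from arachnoid barrier.

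A finer clustering divided the Dpp4/Cdh1 state in 3, which together held 3126 nuclei, of which 3080 were among the 3236 of the state. Ocln was lowest in the part led by Prg4 and Kng2 (1052 nuclei), at 10.1 and 11.4 CPM. It stood at 49.6 and 39.4 CPM in the part led by Slc13a3 and Trpm3 (858 nuclei) and at 42.0 and 37.2 CPM in the part led by Cdh1, Col25a1 and Sptssb (1216 nuclei), with Ocln itself among its leading genes. The Slc13a3 part was leptomeningeal-like (5 of 5 markers up) and the Cdh1 part arachnoid-barrier-like (4 of 6), so Ocln was not particular to the latter. Cldn11 rose over the same 3 parts, at 141 and 146, 180 and 161, and 237 and 203 CPM. Tjp1 stood at 313 and 313, 781 and 807, and 832 and 851 CPM, so that the Prg4 part was close to the leptomeningeal-like state. The resolution was chosen after the main states had been seen.

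Between libraries, Cldn11 and Ocln in lesional fibroblast-like nuclei were lower in the cKO-labelled library. The log2 ratio was -0.34 (-0.45 to -0.23) for Cldn11 and -0.47 (-0.81 to -0.15) for Ocln, and -0.13 (-0.19 to -0.076) for Tjp1. These intervals lay below 0, but none of these ratios reached 1.5-fold. Of the 8 genes, 4 had at least 50 UMIs, and 0 of those were past 1.5-fold in either direction. Over the 14338 genes tested, 3.20% were higher and 2.55% lower. Cldn1, under that minimum, had a log2 ratio of -1.62 (-4.27 to 0.19) on 10 and 3 UMIs. The shares of the states differed too. The Dpp4/Cdh1 state made up 41.4% of lesional fibroblast-like nuclei in the control-labelled library and 36.7% in the cKO-labelled library, and the late-inner-like state 23.4% and 31.0%. With each state weighted alike in both libraries, an alternative added after the data were seen, the Cldn11 ratio was -0.17.

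Within states the Cldn11 ratio was 0.37 in the late-inner-like, -0.086 in the dural-like, -0.20 (-0.34 to -0.067) in the Dpp4/Cdh1 and -0.68 (-1.16 to -0.19) in the leptomeningeal-like state. The Ocln ratio within the Dpp4/Cdh1 state was -0.24 (-0.58 to 0.095), an interval that held 0. By mouse, Cldn11 stood at 114 against 82.0 CPM in females and 93.3 against 80.5 CPM in males, log2 ratios of -0.48 and -0.21. The Ocln ratio was -0.51 in females and -0.016 in males. Mice of the control-labelled library differed by similar amounts, and those of the cKO-labelled library by less in Cldn11 and Ocln. In the control-labelled library the log2 ratio of male over female was -0.29 (-0.46 to -0.13) for Cldn11, -0.37 (-0.90 to 0.15) for Ocln and -0.20 (-0.28 to -0.11) for Tjp1. In the cKO-labelled library it was -0.027 (-0.22 to 0.16), 0.12 (-0.46 to 0.72) and -0.12 (-0.21 to -0.029).

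In the other lesional classes compared, 0 of the genes with at least 50 UMIs were past 1.5-fold. In astrocyte-like nuclei 3 were tested, where 3.96% of all genes were higher and 5.61% lower. In endothelial-like nuclei 3 were tested (6.87% and 8.92%), in oligodendrocyte-like nuclei 2 (4.93% and 6.39%) and in myeloid-like nuclei 3 (2.88% and 3.29%). Some genes under that minimum were past 1.5-fold on few UMIs. Cldn1 in myeloid-like nuclei had a ratio of -1.41 (-3.03 to -0.029), on 13 and 7 UMIs. Marveld2 there (-0.76) and Cldn12 in oligodendrocyte-like nuclei (-0.72) were also lower, with intervals that held 0. Within the Slc38a5 subcluster Cldn5 and Tjp1 had ratios of 0.45 (0.11 to 0.79) and 0.41 (0.15 to 0.66), and within the Plvap subcluster -0.62 (-1.82 to 0.41) and -0.079 (-0.66 to 0.48). Of the other tight junction genes, Cldn16 was higher in fibroblast-like nuclei (19 against 42 UMIs, 1.33 and 2.86 CPM), as 1 of 32. In myeloid-like nuclei 1 of 28 was higher, the junction scaffold Cgnl1 at 32.5 and 52.3 CPM, and 2 were lower, Pard6g at 11.7 and 7.64 CPM and Lsr at 7.69 and 5.05 CPM. In astrocyte-like, endothelial-like and oligodendrocyte-like nuclei 0 of 25, 15 and 16 were past 1.5-fold.

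**Figure D5:**
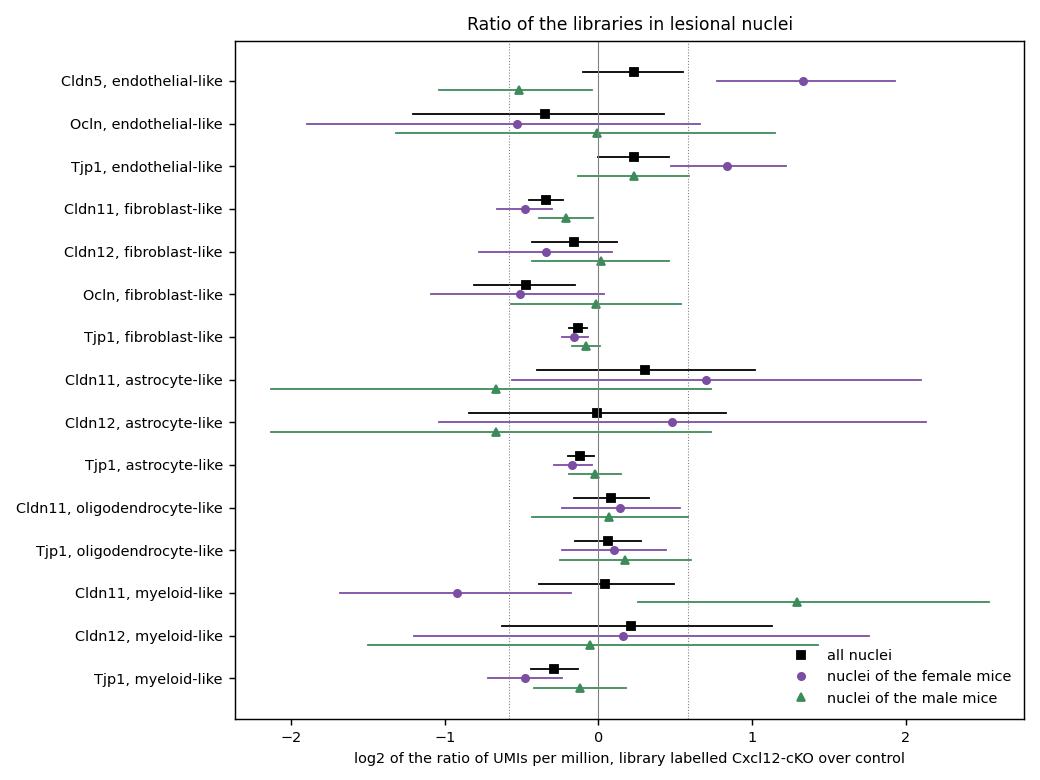
Log2 ratio of the cKO-labelled over the control-labelled library for the tight junction genes with at least 50 UMIs in each lesional class, over all nuclei (squares) and by mouse (circles female, triangles male), with 95% counting intervals; dotted lines mark 1.5-fold. Every square lay within 1.5-fold. Cldn5 in endothelial-like and Cldn11 in myeloid-like nuclei fell on opposite sides of 0 in the female and male mice, with intervals that excluded 0. Cldn11 and Cldn12 in astrocyte-like and Cldn12 in fibroblast-like and myeloid-like nuclei also fell on opposite sides, with intervals that held 0.

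Ocln outside fibroblasts was highest in endothelial-like nuclei. In the lesion it stood there at 159 CPM (114 to 214) and 123 CPM (75.1 to 190), from 42 and 20 UMIs, and in the parenchyma 6 and 7 UMIs gave 414 and 268 CPM over 8 and 13 nuclei. The vascular subcluster led by Il33 stood at 35.0 CPM (15.1 to 69.0) and 120 CPM (68.8 to 196). Parenchymal fibroblast-like nuclei stood at 80.4 CPM (47.7 to 127) and 23.4 CPM (7.61 to 54.7), from 18 and 5 UMIs. Astrocyte-like nuclei of the lesion stood at 6.54 and 9.31 CPM, and excitatory neuron-like nuclei of the parenchyma at 2.85 and 2.18 CPM, near the levels of the neighbouring classes. Myeloid-like nuclei, not known to form tight junctions, stood at 3.42 and 2.88 CPM.

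Tjp1, whose protein also joins adherens and gap junctions, was found in every class. Lesional endothelial-like nuclei stood at 1413 and 1655 CPM, astrocyte-like nuclei at 928 and 856, oligodendrocyte-like at 518 and 540, excitatory neuron-like at 497 and 467, inhibitory neuron-like at 423 and 450 and fibroblast-like at 389 and 355 CPM. Lower values were found in precursor-like (260 and 298), mural-like (270 and 244), osteoblast-like (155 and 101) and myeloid-like (137 and 112) nuclei. The endothelial and astrocyte classes came first in both libraries, while the order of oligodendrocyte-like and neuron-like nuclei was close.

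Tjp1 was higher in parenchymal than in lesional fibroblast-like nuclei. The parenchymal values were 1055 and 647 CPM over 51 and 50 nuclei, and the log2 ratio of lesion over parenchyma was -1.44 (-1.63 to -1.24) in the control-labelled library and -0.87 (-1.11 to -0.61) in the cKO-labelled library. It did not hold with each nucleus classed by its own marker UMIs, where it was 0.24 and -0.045, and in the cKO-labelled library it was -0.27 in females and -1.48 in males. Parenchymal astrocyte-like nuclei stood at 926 and 672 CPM, with log2 ratios of -8.4e-05 and 0.34. Those astrocytes were equal between regions in the control-labelled library and higher in the lesion in the other library.

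Cldn10, which forms ion-selective pores, differed by region within astrocytes. Parenchymal astrocyte-like nuclei gave 12 UMIs over 39 nuclei, 61.4 CPM (31.7 to 107), in the control-labelled library and 27 UMIs over 47 nuclei, 113 CPM (74.3 to 164), in the cKO-labelled library. Lesional astrocyte-like nuclei gave 14 UMIs over 534 nuclei, 6.10 CPM (3.34 to 10.2), and 18 UMIs over 532 nuclei, 6.98 CPM (4.14 to 11). The intervals of lesion and parenchyma did not overlap in either library, and the log2 ratio was -3.34 (-4.55 to -2.09) and -4.00 (-4.96 to -3.10). With nuclei classed by their own marker UMIs the parenchymal level in the cKO-labelled library was 61.3 CPM.

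A Cldn10 UMI was seen in 25.6% and 38.3% of parenchymal and in 2.25% and 3.01% of lesional astrocyte-like nuclei, at median depths of 4902 and 4872, and 3650 and 4036 UMIs. Thinned to 1000 UMIs the shares were 7.69% and 10.6% against 0.753% and 0.755%. The UMIs were spread over 10 and 18 parenchymal nuclei, with at most 2 and 3 in 1 nucleus. Parenchymal excitatory neuron-like nuclei stood at 3.20 and 3.92 CPM and inhibitory neuron-like nuclei at 3.07 and 2.71 CPM. Lesional fibroblast-like nuclei stood at 0.768 and 0.682 CPM, the lowest of these classes. RefSeq lists alternative starts of Cldn10, which counts at the 3′ end do not separate.

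Of the 4 genes with enough UMIs in astrocyte-like nuclei, Cldn10 was lower in the lesion in both libraries, where 10.6% of 10109 genes were at least 1.5-fold lower and 19.0% higher. Cldn11 was past the fold in the other direction, but on 0 and 2 parenchymal UMIs, which is within the 3 counts that a count of 0 allows, and is not read. Among the other tight junction genes 7 of 26 were higher in lesional astrocytes and 1 was lower. Over both libraries, from parenchyma to lesion, Cgnl1 stood at 6.90 and 41.9 CPM, the polarity scaffold Patj at 18.4 and 55.2 CPM and the adhesion molecule Jam3 at 34.5 and 84.4 CPM. Amot was lower, at 101 and 28.9 CPM. The list's median log2 ratio was 0.37, against 0.18 over all genes tested.

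Cldn12, Cldn1 and Marveld2 had no class in which they stood high. Cldn12 stood at 16.6 and 14.9 CPM in lesional fibroblast-like, 18.9 and 18.5 in endothelial-like, 10.9 and 10.9 in astrocyte-like and 15.1 and 13.9 CPM in excitatory neuron-like nuclei. It was lowest of these in myeloid-like nuclei, at 4.06 and 4.76 CPM. Cldn1 gave 10 and 3 UMIs in lesional fibroblast-like nuclei and 0 in astrocyte-like nuclei, and stood at 2.04 and 1.72 CPM in inhibitory neuron-like nuclei of the parenchyma. In lesional myeloid-like nuclei it stood at 2.78 CPM (1.48 to 4.75) and 1.01 CPM (0.406 to 2.08), from 13 and 7 UMIs. Its values stood close to the floor of 3 counts in most classes. Marveld2 stood at 2.70 and 2.64 CPM in parenchymal excitatory neuron-like nuclei and at 5.13 and 3.03 CPM in lesional myeloid-like nuclei. In endothelial-like nuclei it gave 2 and 0 UMIs, below the floor of 3 counts, so a Marveld2 level there was not detectable at this depth.

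The list of other tight junction genes held 57 genes that are in the files, of which 41 had at least 50 UMIs and 7 had 0. Of its 19 claudins, 4 had 50 UMIs or more: Cldn14, Cldn16, Cldn18 and Cldn34c1. Cldn14, chosen after its values were seen, gave 312 of its 369 UMIs in oligodendrocyte-like nuclei, at 188 CPM there.

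The genes whose level ran most like each member over classes, regions and libraries were named by Pearson's r of log2(CPM + 1) over the 26 sums with at least 50 nuclei, among 19956 genes. The sums share libraries and depths, so these are descriptions. For Cldn5 they were the endothelial genes Ly6c1 (0.940), Dipk2b (0.928) and Tie1 (0.927). For Cldn11 they were E130308A19Rik (0.929), Plekhg3 (0.909) and Slc12a2 (0.904), and for Ocln Proser2 (0.919), 1700018A04Rik (0.898) and Gm36660 (0.890). For Tjp1 they were Agrn (0.829), Ccdc85a (0.817) and Cpe (0.811), and for Cldn12 Ccdc149 (0.896), Zfyve9 (0.875) and Npdc1 (0.868). Cldn10 was nearest to Lrfn4 (0.804), Gm42902 (0.792) and Raver2 (0.778). The nearest genes to Cldn1 and Marveld2 were Smim35 (0.843) and Alpk2 (0.754).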

How the data were processed

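Nuclei were isolated from lesion and parenchyma tissue, tagged by region (CellPlex), mixed, sorted as DAPI+ and sequenced by the authors with Chromium 3′ chemistry. The deposited matrices hold UMI counts per gene and barcode, which the authors made with Cell Ranger 9.0.0 on GRCm39. There was 1 matrix for each region of each library, 4 in all, and 2 samples hold the tags. The submitters' notes name the tool and the build. The 12 tag features were left out.

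Barcodes outside the central 95% of UMIs and genes (2.5% cut at each end) or high in mitochondrial counts were left out. Nuclei were normalised to 10000, and 3000 variable genes without the members or other tight junction genes (2000 for states and subclusters) gave 30 principal components, 20 neighbours and Leiden clusters at resolution 0.25 (Scanpy 1.11.5, Python 3.11.15, SciPy 1.17.1). A cluster was called X-like with at least 3 markers up (log2 fold 0.5, in 10% of nuclei), thresholds set after the clusters were seen. Scrublet called 27, 2, 15 and 1 doublets, so it had not worked, and the highest 10% of scores were removed as an alternative. Total UMIs per matrix were 31995274 to 62749811, and 30864931 to 48051671 in kept nuclei. UMIs were summed per class and given as CPM with 95% exact intervals. Ratios had 0.5 added to each sum, and genes needed 50 UMIs. Intervals were tested on simulated Poisson counts, the model they assume. Those counts lack the spread between nuclei and mice, so the test cannot check the intervals for it. Shares were thinned to 1000 UMIs. Nuclei were assigned to the male or female mouse by sex-linked genes.

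Besides the members, the text names tight junction list genes past 1.5-fold, at most 3 a direction by size, and 3 genes most like each member. Some results of the list are not reported here. List genes beyond these were chosen after their values were seen. Members and lists were chosen with earlier results of these data known. Alternatives on filter, resolution, class rule, doublets, mouse and weighting are given below, and 4 were added after the data were seen. Nothing in the deposited files gives the authors' own comparisons.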

Additional observations from a re-analysis of the deposited data

Results flagged for a closer look

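Log2 ratios below are cKO-labelled over control-labelled library. Cldn5 in lesional endothelial-like nuclei had a log2 ratio of 1.33 in nuclei assigned to the female mice and -0.52 in nuclei assigned to the male mice, so that the sexes ran in opposite directions. Cldn11 in lesional myeloid-like nuclei had a log2 ratio of -0.92 (-1.68 to -0.18) in females, from 18.4 to 9.66 CPM (34 and 31 UMIs). In males it was 1.29 (0.26 to 2.54), from 6.58 to 16.7 CPM (10 and 29 UMIs). Each side rests on 1 mouse a genotype, and the difference between the sexes was not tested in either case. Cldn11 in all lesional myeloid-like nuclei stood at 3.49 and 2.79 UMIs per 100 oligodendrocyte list UMIs. That was close to the 3.21 and 3.28 of oligodendrocyte-like nuclei. Whether these UMIs came from myeloid cells was not tested.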

How the results depend on the processing

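No paired analysis was possible because each group is 1 library and the results come from no test. The alternatives changed 1 choice at a time. Among the ratios below whose main interval excluded 0, 1 changed sign, that of Tjp1 by region in fibroblasts labelled control. Ratios whose main interval held 0 changed sign as well. Among them were main library ratios of 0.23 for Cldn5, 0.23 for Tjp1 and -0.35 for Ocln in endothelium. Another was 0.082 for Cldn11 in oligodendrocytes. The causes were not tested unless a construction is named.

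With each nucleus classed by its own marker UMIs, where fibroblast and astrocyte lists share nuclei, Cldn5 in lesional endothelial-like nuclei was 376 and 330 CPM, Cldn10 in parenchymal astrocytes of the cKO-labelled library 61.3, Cldn11 349 and 274 in oligodendrocytes and 84.4 and 67.0 in fibroblasts, and Tjp1 in astrocytes 872 and 802. The log2 ratios between libraries became -0.25 for Tjp1 in fibroblasts, -0.19 for Cldn5 in endothelium and -0.35 for Cldn11 in oligodendrocytes. Lesion over parenchyma became -0.26 for Tjp1 in astrocytes labelled control, -0.045 for Tjp1 in fibroblasts labelled cKO and 0.24, reversed, in fibroblasts labelled control. Under the main class rule Tjp1 in fibroblasts labelled cKO was -0.27 in females and -1.48 in males.

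With each nucleus weighted alike, Cldn5 in endothelium labelled cKO was 656 CPM, Cldn11 in fibroblasts 113 and 88.1, Tjp1 in astrocytes labelled cKO 787, and the Tjp1 ratio -0.33 in endothelium and -0.22 in astrocytes. In the Dpp4/Cdh1 state Cldn11 labelled control was 206 and Tjp1 668 and 652. Without the highest Scrublet scores Cldn11 in oligodendrocytes was 518 and 527 and Tjp1 in astrocytes 1036 and 923. Without nuclei holding both sexes the latter was 894 in the cKO-labelled library. With the members kept in clustering the state held 2354 nuclei, with Cldn11 at 214 and 187 and Ocln at 40.0 and 33.3, and endothelium gave ratios of 0.45 for Ocln and 0.53 for Tjp1.

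By mouse, the ratios in fibroblasts were -0.48 (female) and -0.21 (male) for Cldn11 and -0.016 (male) for Ocln. In endothelium they were 1.33 and -0.52 for Cldn5 and 0.84 (female) for Tjp1, in astrocytes -0.024 (male) for Tjp1, and in myeloid nuclei -0.92 and 1.29 for Cldn11 and -0.48 and -0.12 for Tjp1. With states weighted alike, Cldn11 was -0.17 and Tjp1 -0.064.

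Thinned shares were 35.7% for Cldn5 labelled control, 10.6% and 7.67% for Cldn11 in fibroblasts, 37.9% and 38.2% in oligodendrocytes, and 7.69% and 10.6% for Cldn10.

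Genes past 1.5-fold rose without a minimum of UMIs, by construction, from 459 to 2282 higher and 365 to 1969 lower in fibroblasts, 384 to 1929 and 545 to 2700 in astrocytes, 134 to 2956 and 174 to 1836 in endothelium, 233 to 2070 and 302 to 2505 in oligodendrocytes and 353 to 1642 and 403 to 2009 in myeloid nuclei. By mouse, with fewer nuclei, the counts were 720 higher in fibroblasts (female), 87 higher (male) and 66 (female) and 94 (male) lower in endothelium, 108 higher (male) and 183 (female) and 113 (male) lower in oligodendrocytes and 783 lower in myeloid nuclei (female). Without the highest Scrublet scores 148 were lower in oligodendrocytes.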
